A study of Mus musculus with 12 samples.

Results

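The mRNA of bone marrow-derived macrophages (BMDMs) treated with DKK1 was compared directly with that of BMDMs treated with IL-13, across all genes and in both directions. The comparison takes 6 of the 12 RNA seq libraries of the study, 3 with DKK1 alone and 3 with IL-13 alone, chosen by treatment label and by no measured value. BMDMs are macrophages grown in culture from bone marrow with M-CSF, here from C57Bl/6J mice, whose strain the labels give as C57BL/6, wild-type. The DKK1 cultures received 30 ng/ml of DKK1 and the IL-13 cultures 2 ng/ml of IL-13, each for 24 h, so each ligand was measured at a single dose and the doses differ. Untreated BMDMs of the same 24 h (3 libraries) are given as background after the levels of both ligands. Cultures given both ligands entered the model fit only. The labels call the replicates biological and do not say how many mice they came from. The p-values therefore set each difference against the spread between cultures, estimated from all 12 libraries.

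DKK1 (Dickkopf-1) is a secreted antagonist of canonical Wnt signaling that binds the Wnt co-receptors LRP5 and LRP6 and the Kremen proteins. IL-13 is a type 2 cytokine that acts through a receptor of IL-4Rα and IL-13Rα1 chains, whose JAK kinases phosphorylate the transcription factor STAT6. In macrophages this gives the program called alternative activation, with arginase, chitinase-like proteins, the resistin-like protein RELMα and lectins. The comparison asks how the state reached with DKK1 alone differs from the state reached with the type 2 cytokine.

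The total count per library was 32224036 to 35026632 with DKK1 and 32772880 to 36325497 with IL-13. Levels are CPM, a gene's counts relative to the total of its library, after TMM scaling (factors 0.945 to 0.964 with DKK1 and 1.01 to 1.03 with IL-13). In a principal component analysis of the 6 libraries the ligands were separated along the first component (73.0% of the variance). The second (7.97%) set DKK1 replicates 1 and 3 apart from each other. The macrophage label fit its markers: all 9 (among them Adgre1, Csf1r and Spi1) passed the filter, with a summed level of 44556 to 45251 CPM with DKK1 and 19463 to 20514 CPM with IL-13, most of it Lyz2. Lyz2, a lysozyme gene of macrophages, took 3.03 to 3.09% of all counts with DKK1, 1.11 to 1.16% with IL-13 and 1.71 to 1.80% in untreated cells. Among other cell types, none of the 8 T and NK cell markers was in the table, and no erythroid marker passed the filter. Summed neutrophil markers lay between 457 and 483 CPM with DKK1 and between 453 and 666 CPM with IL-13, and stromal markers between 58.7 and 93.8 CPM with DKK1 and between 62.8 and 128 CPM with IL-13. The B cell, mast cell and basophil, and dendritic cell markers that were tested summed to at most 6.46 CPM in any of these 6 libraries. Marker genes that were called are Lyz2 (1.53 ± 0.03), Fcgr1, Cd14 and Itgam of macrophages, Camp (-1.05 ± 0.12), Ly6g (-1.84 ± 0.62) and Prtn3 (1.09 ± 0.29) of neutrophils, Pdgfrb (1.14 ± 0.29) of stromal cells, Cd79a (-2.23 ± 0.69), Kit (-1.31 ± 0.46), Gata2 (-2.98 ± 0.49), Clec9a (-1.73 ± 0.65), Xcr1 (2.4 ± 0.56) and Zbtb46 (-2.86 ± 0.59), each a log2 fold change of DKK1 over IL-13 ± SE, and Pf4 and Ppbp. The calls of Camp, Ly6g, Prtn3, Pdgfrb, Cd79a, Kit and Clec9a each ended without at least 1 library. The log2 fold change was -0.92 for Camp without IL-13 replicate 1, and 0.80 for Prtn3 and 0.86 for Pdgfrb without IL-13 replicate 3. The adjusted p (edgeR's quasi-likelihood test) was 0.0686 for Cd79a without IL-13 replicate 3, 0.127 for Ly6g and 0.120 for Kit without IL-13 replicate 1, and 0.114 for Clec9a without IL-13 replicate 2. Their part in the results was not tested. In bulk RNA, fewer cells of a type and less RNA per cell cannot be told apart. Of the low counts (1 to 20), 76.8% were even numbers, against 51.5% of counts above 1000, so low counts are not single independent reads.

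Of 16306 genes tested, 1102 were higher and 1403 lower with DKK1 than with IL-13, which is 6.76% and 8.60% of the genes tested and 15.4% in either direction (quasi-likelihood test of edgeR, Benjamini-Hochberg adjusted, where a call needed an adjusted p under 0.05 and a log2 fold change beyond 1 either way). The shares of 6.76% and 8.60% are the background for every count of list members below. The lists were chosen with earlier results of these data known, so these comparisons describe the lists and do not test them. At the adjusted p alone, 4343 genes were higher and 4559 lower, or 54.6% of the genes tested. The median log2 fold change of all genes tested was -0.0111. Among called genes, 61 were higher and 74 lower by more than 4 on the log2 scale, and in 2445 of 2505 the 3 DKK1 values did not overlap the 3 IL-13 values, which the call itself favors. Over all genes tested, called or not, the groups did not overlap in 59.3%. Log2 fold changes are DKK1 over IL-13 throughout, ± an approximate SE, found by dividing the size of the log2 fold change by the root of its F statistic.

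**Figure D1:**
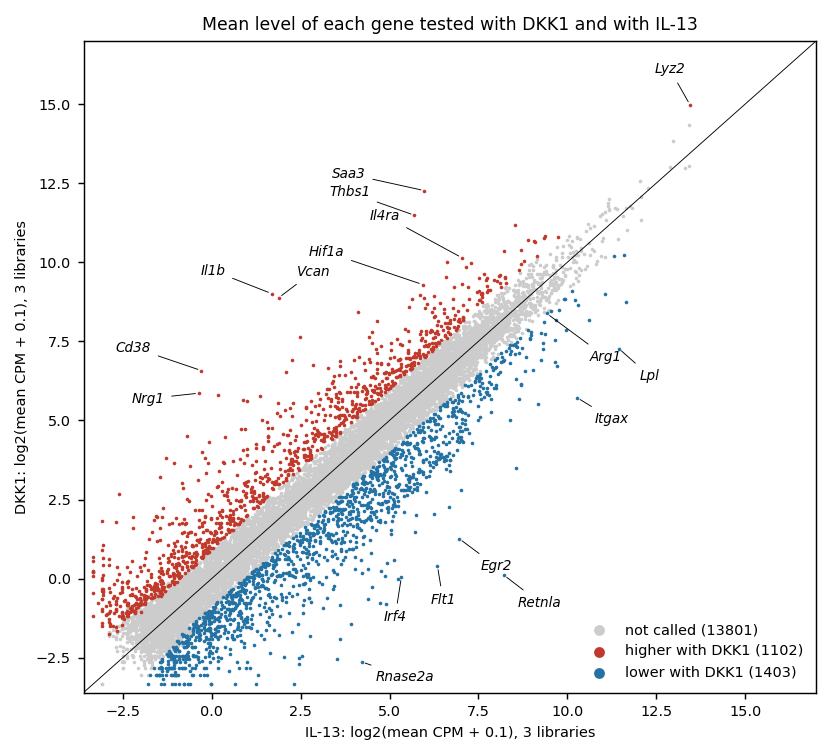
Mean level of each of the 16306 genes tested with DKK1 (vertical axis) and with IL-13 (horizontal axis), as log2 of CPM plus 0.1, with genes called higher (1102) and lower (1403) with DKK1 in color. Il1b, Vcan, Cd38 and Saa3 lie farthest above the diagonal among the genes labelled, and Retnla, Rnase2a, Flt1, Egr2 and Irf4 farthest below it.

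The untreated level places each difference relative to baseline, with nearness taken on the log2 scale. Of the 1102 genes higher with DKK1, the untreated mean was between the ligand means in 758, below both in 252 and above both in 92, and it was nearer to the IL-13 mean in 762. Of the 1403 genes lower with DKK1, it was between the ligand means in 1074, below both in 94 and above both in 235, and nearer to the IL-13 mean in 768. Over all 16306 genes the untreated mean was nearer to the IL-13 mean in 8229. It was between the ligand means in 7006, below both in 4134 and above both in 5166. These counts are the background for the untreated positions of list members below. Il1b, Vcan and Socs3 were near their untreated level with IL-13, Retnla and Mgl2 were near it with DKK1, and Egr2, Irf4 and Flt1 lay on opposite sides of it with the 2 ligands.

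Il1b, the gene of the inflammatory cytokine IL-1β, had the largest positive log2 fold change of the genes named by size. The rule for naming by size, in either direction, admitted only genes whose ligand groups did not overlap. Il1b had 523, 510.4 and 510.1 CPM in the DKK1 libraries, against 2.36, 1.92 and 5.1 CPM in the IL-13 libraries. Every DKK1 library lay far above every IL-13 library, and the untreated level was 3.91 ± 1.32 CPM (SD, n = 3), a log2 fold change of 7.35 ± 0.18 between the ligands (adjusted p = 7.75e-19, edgeR's quasi-likelihood test). Cd38, which encodes an NAD-degrading ectoenzyme, had 94.7, 97.4 and 93.9 CPM in the DKK1 libraries, against 0.238, 0.494 and 1.42 CPM in the IL-13 libraries, a log2 fold change of 7.02 ± 0.19. Vcan, the gene of the matrix proteoglycan versican, had 526, 435 and 449.7 CPM in the DKK1 libraries, against 2.21, 2.2 and 6.38 CPM in the IL-13 libraries (7.02 ± 0.18). In both genes IL-13 replicate 3 was the highest of the IL-13 libraries and still far below every DKK1 library. With 1 library left out, the log2 fold change ran from 7.09 to 7.91 for Il1b. It ran from 6.63 to 7.99 for Cd38 and from 6.75 to 7.74 for Vcan. These ranges overlap, so the order of these genes is not settled. Saa3 and Saa1 encode acute phase proteins of the serum amyloid A family, whose close similarity can split reads. Saa3 had 5037, 4584 and 5120.5 CPM in the DKK1 libraries, against 68.6, 25.6 and 95.1 CPM in the IL-13 libraries (6.28 ± 0.27), and Saa1 was far less abundant with 6.19, 5.62 and 6.95 CPM in the DKK1 libraries, against 0.0298, 0.0549 and 0.109 CPM in the IL-13 libraries (6.5 ± 0.31). Untreated cells had 24.4 ± 0.919 CPM of Saa3 (SD, n = 3).

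The rest of the largest positive differences belonged to secreted factors, an enzyme and a cytokine signaling inhibitor. Nrg1, which encodes a ligand of the ErbB receptors, had 61.8, 57.2 and 55.1 CPM in the DKK1 libraries, against 0.954, 0.329 and 0.764 CPM in the IL-13 libraries (6.42 ± 0.15). Thbs1, the gene of the matricellular protein thrombospondin-1, had 2960.4, 2854 and 2779 CPM in the DKK1 libraries, against 62.1, 38.2 and 55.4 CPM in the IL-13 libraries (5.79 ± 0.19), the highest level with DKK1 of this set after Saa3. Tnfsf14, which encodes the TNF family cytokine LIGHT, averaged 56.3 ± 6.42 CPM with DKK1, against 1.03 ± 0.232 CPM with IL-13 (5.76 ± 0.13; SD, n = 3 each, as in all mean values below). The rule that chose this set left out genes that overlapped between ligands. The neutrophil attractant Cxcl3 (5.41 ± 0.21), Socs3 (5.2 ± 0.09), the plasminogen activator inhibitor Serpinb2 (5.1 ± 0.39) and Kmo, an enzyme of tryptophan breakdown (5.05 ± 0.21), completed the 12 largest. Serpinb2 overlaps Serpinb10 on the same strand, Il1b, Cd38, Thbs1 and Kmo overlap a gene on the opposite strand, and the strand setting of the counting is not given in the sources used here.

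On the IL-13 side, Retnla, which encodes RELMα and is a standard mark of alternative activation, had the log2 fold change farthest from 0 of all genes named (GRCm39 chromosome 16, 48662895 to 48664824, plus strand). Its level was 1.15, 1.2 and 0.587 CPM in the DKK1 libraries, against 219, 345 and 327 CPM in the IL-13 libraries, and 1.34, 0.772 and 1.18 CPM in the untreated libraries. The DKK1 and untreated libraries overlapped, every IL-13 library was over 100 times higher, and the log2 fold change was -8.23 ± 0.19 (adjusted p = 5.14e-19, edgeR's quasi-likelihood test). Rnase2a and Ear2, eosinophil-associated ribonuclease genes from a family of near-identical copies, had log2 fold changes of -8.14 ± 0.38 and -5.41 ± 0.19. Rnase2a had 0.0604, 0.124 and 0 CPM in the DKK1 libraries, against 12.2, 20.9 and 22.5 CPM in the IL-13 libraries. IL-13 replicate 1 was the lowest of its group in Retnla, Rnase2a, Mgl2 and Ear2, which were chosen without overlap between the ligands. Ocstamp, which takes part in the fusion of osteoclasts, had 0.121, 0.0927 and 0 CPM in the DKK1 libraries, against 10.1, 12.2 and 12.1 CPM in the IL-13 libraries (-7.23 ± 0.33). Hr, a nuclear corepressor (-6.15 ± 0.32), Flt1, a VEGF receptor (-6.07 ± 0.12), the microtubule-associated Map2 (-6.03 ± 0.51), the lectin Mgl2 (-5.79 ± 0.23), the myosin heavy chain Myh15 (-5.78 ± 0.27), Egr2 (-5.75 ± 0.12), Irf4 (-5.43 ± 0.17) and the sulfotransferase Chst3 (-5.26 ± 0.17) completed this set.

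Of 24 alternative activation markers tested, none was higher and 18 were lower with DKK1, where 8.60% of all genes tested were lower, with a median log2 fold change of -2.76 against -0.0111 over all genes tested. In 19 of the 24 the untreated mean was nearer to the DKK1 mean. The transcription factors Egr2 and Irf4 lay on opposite sides of baseline with the 2 ligands, while Tfec, given below, was above it with both. Egr2, which takes part in the transcriptional response to IL-4, had 2.78, 2.13 and 1.99 CPM in the DKK1 libraries, against 117, 127 and 129 CPM in the IL-13 libraries, and 14, 15.9 and 12.6 CPM in untreated cells. Each DKK1 library was below each untreated one, and each IL-13 library above. Irf4, a regulator of alternative activation, had 0.483, 1.08 and 1.24 CPM in the DKK1 libraries, against 36.2, 40.6 and 43.9 CPM in the IL-13 libraries (-5.43 ± 0.17), with 5.1 ± 0.287 CPM in untreated cells. The pattern was the same for Flt1, which had 1.03, 1.05 and 1.57 CPM in the DKK1 libraries, against 85.4, 83.7 and 75 CPM in the IL-13 libraries and 12.4 ± 1.53 CPM in untreated cells. Pparg, a lipid-sensing nuclear receptor, differed by -4.29 ± 0.13, with 2.7 ± 0.514 CPM with DKK1, against 52.9 ± 3.39 CPM with IL-13 and 44.2 ± 6.15 CPM in untreated cells. Batf3 averaged 1.52 ± 0.499 CPM with DKK1, against 16.1 ± 0.463 CPM with IL-13 (-3.41 ± 0.21). Its untreated level of 2.36 ± 0.891 CPM was nearer to the DKK1 mean than to the IL-13 mean. Klf4 averaged 7.65 ± 0.678 CPM with DKK1, against 44.3 ± 1.67 CPM with IL-13 (-2.53 ± 0.08), with 11.7 ± 1.02 CPM in untreated cells.

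Surface and secreted members differed as widely. Mgl2, a galactose-type lectin, had 0.363, 0.525 and 0.555 CPM in the DKK1 libraries, against 19.3, 29.7 and 31 CPM in the IL-13 libraries (-5.79 ± 0.23). Clec7a, the β-glucan receptor dectin-1, had 108, 103 and 103 CPM in the DKK1 libraries, against 806, 836 and 853 CPM in the IL-13 libraries, with little spread in either group (-2.99 ± 0.04, adjusted p = 3.45e-22, edgeR's quasi-likelihood test). Untreated cells had 334 ± 14.6 CPM of it, above DKK1 and below IL-13. Pdcd1lg2, the checkpoint ligand PD-L2, had 0.423, 0.463 and 0.49 CPM in the DKK1 libraries, against 14.2, 10.5 and 11.4 CPM in the IL-13 libraries (-4.7 ± 0.21), and the untreated mean was 0.131 CPM. Chil3, a chitinase-like protein, averaged 53.7 ± 5.21 CPM with DKK1, against 200.2 ± 21.5 CPM with IL-13 (-1.9 ± 0.07), with 92.6 ± 5.89 CPM in untreated cells. Its near-identical neighbor Chil4 could share its reads (-2.06 ± 0.21). The chemokine Ccl17, a ligand of CCR4, was low everywhere, with 0.0604, 0.216 and 0.0653 CPM in the DKK1 libraries, against 1.52, 1.35 and 1.15 CPM in the IL-13 libraries (-3.51 ± 0.54) and no count in untreated libraries. The adhesion molecule Cdh1 (-3.94 ± 0.21) and the kinase Matk (-2.51 ± 0.08) were also lower with DKK1.

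In 9 markers the mean was above the untreated one with both ligands. These were Arg1, Mrc1, Ccl22, Tgm2, Ccl24 and Tfec, and, at low levels with DKK1, Pdcd1lg2, Cdh1 and Ccl17. Arg1, the arginase of the program, had 354, 284 and 362 CPM in the DKK1 libraries, against 625, 686 and 740.3 CPM in the IL-13 libraries, and 6.85, 17.5 and 19.9 CPM in untreated cells. The ligand groups did not overlap, both were more than 10 times above every untreated library, and the log2 fold change of -1.04 ± 0.15 lay close to the threshold (adjusted p = 4.91e-06, edgeR's quasi-likelihood test). Without DKK1 replicate 2 it was -0.93 and without IL-13 replicate 3 it was -0.97, both under the fold threshold, and the gene overlaps another on the opposite strand. Mrc1, the mannose receptor CD206, had 875, 1053 and 1039.9 CPM in the DKK1 libraries, against 1699.6, 1764 and 1869 CPM in the IL-13 libraries and 603 ± 25.1 CPM in untreated cells. Its groups did not overlap, but the log2 fold change of -0.85 ± 0.06 was under the fold threshold. Ccl22, another ligand of CCR4, averaged 4.2 ± 0.665 CPM with DKK1, against 8.97 ± 0.161 CPM with IL-13 (-1.1 ± 0.18, and -0.99 without DKK1 replicate 1), with 0.519 CPM in untreated cells. Tgm2 (-0.28 ± 0.05), Ccl24 (0.33 ± 0.26) and Tfec (0.51 ± 0.05) were not called. Nor were Clec10a (-0.78 ± 0.10), whose untreated mean lay between the ligand means, and Alox15 (1.31 ± 0.67), which stayed under 1 CPM in all 3 means. Without DKK1 replicate 3, 1 marker was called higher.

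**Figure D2:**
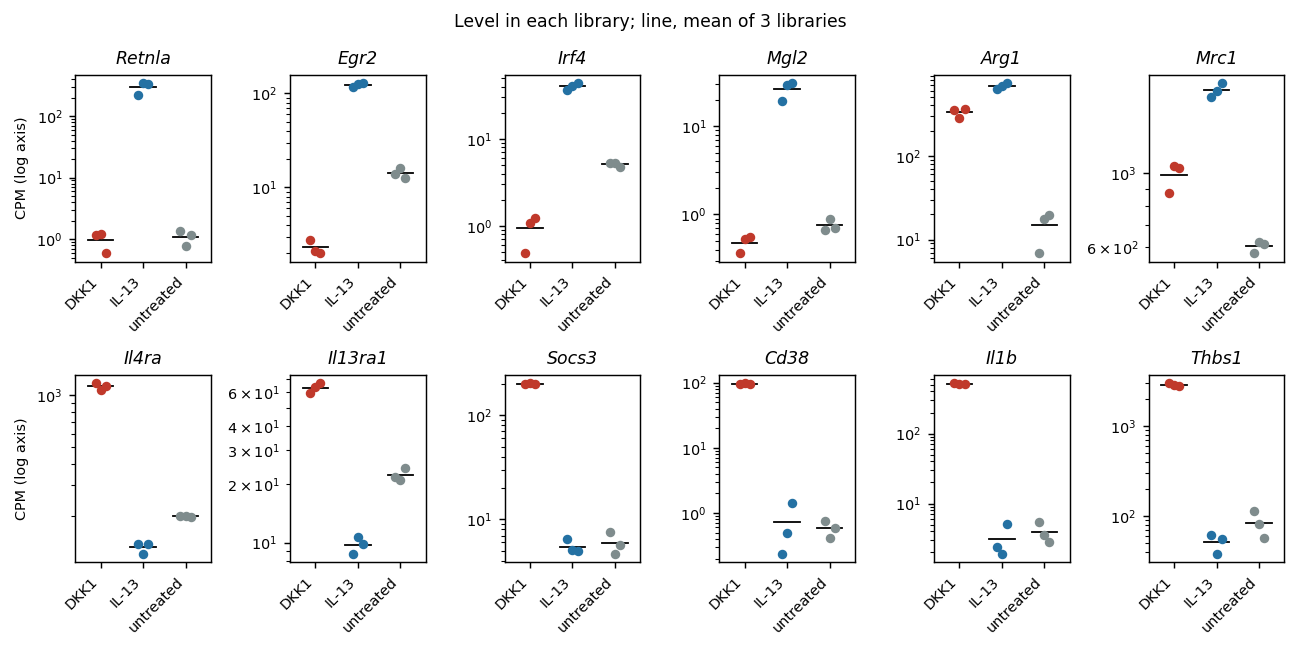
Level of 12 genes in each library (CPM, log axis, with its own range in each panel) with DKK1, with IL-13 and in untreated cells. Points are libraries and lines are means of 3. Retnla and Mgl2 with DKK1 sit near the untreated level, Egr2 and Irf4 with DKK1 sit below it, and Arg1 lies above untreated with both ligands, while Il4ra and Il13ra1 are below untreated with IL-13.

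Letters that resemble a STAT6 binding site were looked for in the RefSeq promoters (GRCm38.p6, 250 bases before to 50 after each start) because STAT6 is the factor below the IL-13 receptor. The palindrome of TTC and GAA with any 4 bases between was in 6 of 26 promoters of the alternative activation markers (23.1%, from 18 of 24 genes with an entry), against 5.63% of promoters of the genes tested and 6.95% of all promoters in the table. It was also in 5 of 25 promoters (20%) of the type I interferon-stimulated genes, which were higher with DKK1. A gene with several starts has several promoters that can hold 1 site in common, here and for the motifs below. The 6 promoters belong to 5 markers, since Clec7a has 2 that hold the same site, and 1 of the 5, Tfec, was not called. Among genes lower with DKK1 it was in 6.68% and among genes higher in 5.6%. Windows around the match are shown for 4 called markers that hold one, read on the gene's strand, with the match in capitals. A match is not proof of a binding site.
Retnla, chr16:48842444-48842493, plus strand: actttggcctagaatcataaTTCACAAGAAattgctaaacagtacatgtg
Pdcd1lg2, chr19:29410817-29410866, plus strand: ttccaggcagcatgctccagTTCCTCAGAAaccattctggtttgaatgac
Ccl17, chr8:94810279-94810328, plus strand: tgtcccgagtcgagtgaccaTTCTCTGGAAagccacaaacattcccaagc
Clec7a, chr6:129472881-129472930, minus strand: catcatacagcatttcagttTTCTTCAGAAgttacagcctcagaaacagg

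The receptor chains for IL-13 themselves were higher with DKK1 than with IL-13. Of 15 IL-4/IL-13 receptor, STAT6 and SOCS genes tested, 5 were higher and 2 lower (median 0.19). Il4ra, which encodes the IL-4Rα chain and is at 125151079 to 125182844 of GRCm39 chromosome 7 (plus strand), had 1174, 1075 and 1136 CPM in the DKK1 libraries, against 136, 120.2 and 137 CPM in the IL-13 libraries. The untreated libraries had 199, 198 and 196 CPM, all below DKK1 and all above IL-13, and the log2 fold change was 3.1 ± 0.05 (adjusted p = 1.04e-21, edgeR's quasi-likelihood test). Il13ra1, the second chain of the receptor, had 59.2, 63.9 and 66.7 CPM in the DKK1 libraries, against 8.76, 10.7 and 9.79 CPM in the IL-13 libraries (2.7 ± 0.08), and 21.9, 21.2 and 24.3 CPM in untreated cells, again between the ligands in every library. Gab1, an adaptor of cytokine and growth factor receptors, averaged 139.9 ± 4.68 CPM with DKK1, against 24.8 ± 1.75 CPM with IL-13 (2.49 ± 0.05), with 44.1 ± 0.98 CPM in untreated cells. Jak3, the kinase that pairs with the common gamma chain, averaged 120.0 ± 1.7 CPM with DKK1, against 38.5 ± 3.77 CPM with IL-13 (1.64 ± 0.06). Gab1, Jak3 and Stat6 overlap other genes. Stat6 itself had 281, 274 and 276 CPM in the DKK1 libraries, against 259.7, 257 and 262 CPM in the IL-13 libraries (0.09 ± 0.03), a difference under the fold threshold.

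The SOCS genes, feedback inhibitors of cytokine signaling, split. Socs3, which restrains STAT3 signaling, had 199.5, 202 and 200.5 CPM in the DKK1 libraries, against 6.41, 5.08 and 4.96 CPM in the IL-13 libraries, and 7.49, 4.69 and 5.68 CPM in untreated cells. The IL-13 libraries were within the untreated range, and the log2 fold change was 5.2 ± 0.09 (adjusted p = 4.72e-21, edgeR's quasi-likelihood test). Socs2 averaged 5.33 ± 0.16 CPM with DKK1, against 14.8 ± 2.3 CPM with IL-13 (-1.48 ± 0.14) and Cish 3.11 ± 0.235 CPM with DKK1, against 7.7 ± 0.284 CPM with IL-13 (-1.31 ± 0.16), both targets of STAT5 signaling in other cells, with 2.18 and 0.235 CPM in untreated cells. Socs1 averaged 7.19 ± 0.898 CPM with DKK1, against 12.4 ± 0.717 CPM with IL-13 and was not called (-0.79 ± 0.10), with 1.82 ± 0.288 CPM in untreated cells. Socs2, Cish and Socs1 were thus above their untreated mean with either ligand and highest with IL-13.

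Arginine can be turned to ornithine and polyamines by arginase or to nitric oxide by NOS2. Of 14 arginine and polyamine genes, 2 were higher and 5 lower with DKK1 (median -0.72). The arginine transporter Slc7a2 averaged 32.3 ± 2.36 CPM with DKK1, against 336 ± 19.7 CPM with IL-13 (-3.38 ± 0.07), with 33.8 ± 4.43 CPM in untreated cells. Spermine synthase Sms (-1.65 ± 0.09), the transporter Slc7a1 (-1.54 ± 0.10), ornithine decarboxylase Odc1 (-1.24 ± 0.08) and Arg1 were the others that were lower. Arg2, the mitochondrial arginase, was higher with 27.1 ± 2.88 CPM with DKK1, against 2.9 ± 0.964 CPM with IL-13 (3.22 ± 0.15). Nos2 was called higher at very low levels, with 0.665, 0.556 and 0.718 CPM in the DKK1 libraries, against 0.0596, 0 and 0.0546 CPM in the IL-13 libraries (3.98 ± 0.69), and the DKK1 libraries lay under 1 CPM.

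Type I interferon-stimulated genes encode antiviral effectors and the sensors and transcription factors that induce them. Of 30 tested, 28 were higher with DKK1 and none lower, against 6.76% higher among all genes tested, with a median log2 fold change of 1.69. In 29 of the 30 the untreated mean was nearer to the IL-13 mean. Irf7, a transcription factor that amplifies interferon induction, had 742, 574 and 592 CPM in the DKK1 libraries, against 196, 102 and 95.1 CPM in the IL-13 libraries, and 91.6, 49 and 51.3 CPM in untreated cells. Replicate 1 was the highest library of all 3 groups, the ligand groups did not overlap, and the log2 fold change was 2.28 ± 0.21 (adjusted p = 4.27e-09, edgeR's quasi-likelihood test; the gene overlaps Phrf1 on the other strand). Zbp1, a sensor of Z-form nucleic acids, had 147, 118 and 118 CPM in the DKK1 libraries, against 21.2, 14 and 17.6 CPM in the IL-13 libraries (2.86 ± 0.10). Ifit1, which binds viral RNA ends, had 70, 49.3 and 53.6 CPM in the DKK1 libraries, against 8.17, 7.06 and 8.13 CPM in the IL-13 libraries (2.89 ± 0.12). Isg15, a ubiquitin-like modifier, had 63.5, 48.3 and 47 CPM in the DKK1 libraries, against 13.4, 11 and 8.84 CPM in the IL-13 libraries (2.26 ± 0.13). Stat2, a subunit of the transcription factor ISGF3, averaged 320.0 ± 45.9 CPM with DKK1, against 115 ± 10.7 CPM with IL-13 (1.47 ± 0.08), and Parp14 averaged 528 ± 43.1 CPM with DKK1, against 213 ± 13.1 CPM with IL-13 (1.31 ± 0.06).

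Most of the other members were called. Irf9, another subunit of ISGF3 (0.82 ± 0.04), and the tetherin gene Bst2 (0.98 ± 0.08) were under the fold threshold. The oligoadenylate synthetases were higher by 1.1 ± 0.07 (Oas1a), 1.68 ± 0.08 (Oas2), 1.22 ± 0.11 (Oas3), 2.76 ± 0.22 (Oasl1) and 2.05 ± 0.12 (Oasl2). The RNA sensors Rigi (1.63 ± 0.07) and Ifih1 (1.4 ± 0.06) and their relative Dhx58 (1.51 ± 0.07) were higher as well. The chemokine Cxcl10, a ligand of CXCR3, was an exception in its baseline, with 4.26, 2.44 and 3.17 CPM in the DKK1 libraries, against 0.358, 0.22 and 0.818 CPM in the IL-13 libraries (2.81 ± 0.36) and 2.55 ± 0.874 CPM in untreated cells, next to the DKK1 mean.

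Within each group the list was highest in replicate 1. Its summed level was 5276, 4293 and 4343 CPM in the DKK1 libraries, against 1787, 1423 and 1385 CPM in the IL-13 libraries, and 1531, 1234 and 1233 CPM in untreated cells. Replicate 1 was the highest library in 30 of 30 genes with DKK1, in 29 of 30 with IL-13 and in 30 of 30 in untreated cells. The DKK1 sum over the IL-13 sum of the same number was 2.95, 3.02 and 3.14, so the difference between ligands was about as large within each number. Summed stromal and neutrophil markers were also highest in replicate 1 of each group. Stromal markers summed to 93.8, 81.0 and 58.7 CPM with DKK1, 128, 81.8 and 62.8 CPM with IL-13, and 173, 134 and 83.2 CPM in untreated cells. Neutrophil markers summed to 483, 469 and 457 CPM with DKK1, 666, 584 and 453 CPM with IL-13, and 748, 701 and 673 CPM in untreated cells. What the libraries of number 1 share was not tested. A fit with the replicate number as a block called the same number of these genes (28).

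Guanylate-binding proteins and immunity-related GTPases attack the vacuoles of intracellular pathogens and are classical targets of interferon-γ. Of 15 tested, 14 were higher with DKK1 and none lower (median 1.82). Gbp7 had 113, 106 and 96.7 CPM in the DKK1 libraries, against 12, 12.4 and 12 CPM in the IL-13 libraries (3.12 ± 0.07, adjusted p = 9.12e-20, edgeR's quasi-likelihood test), with 19.3 ± 0.954 CPM in untreated cells. Gbp5, which promotes NLRP3 inflammasome assembly, averaged 30.9 ± 4.7 CPM with DKK1, against 2.82 ± 0.258 CPM with IL-13 (3.45 ± 0.13), Gbp9 112 ± 5.25 CPM with DKK1, against 24.9 ± 0.353 CPM with IL-13 (2.17 ± 0.06), Gbp3 49.1 ± 4.04 CPM with DKK1, against 12.5 ± 1.12 CPM with IL-13 (1.97 ± 0.08) and Gbp2 60.2 ± 5.81 CPM with DKK1, against 17 ± 1.46 CPM with IL-13 (1.82 ± 0.08). Gbp4, Gbp8 and Gbp9 overlap on 1 strand, as do Igtp and Irgm2, and all members have close relatives, so single values are less certain than the direction of the group. Gbp8 lay on the threshold (1 ± 0.21) and Tgtp1 was not called (1.25 ± 0.54). Replicate 1 was again the highest in sum, at 774, 673 and 669 CPM with DKK1, 214, 194 and 187 CPM with IL-13, and 251, 208 and 211 CPM in untreated cells.

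**Figure D3:**
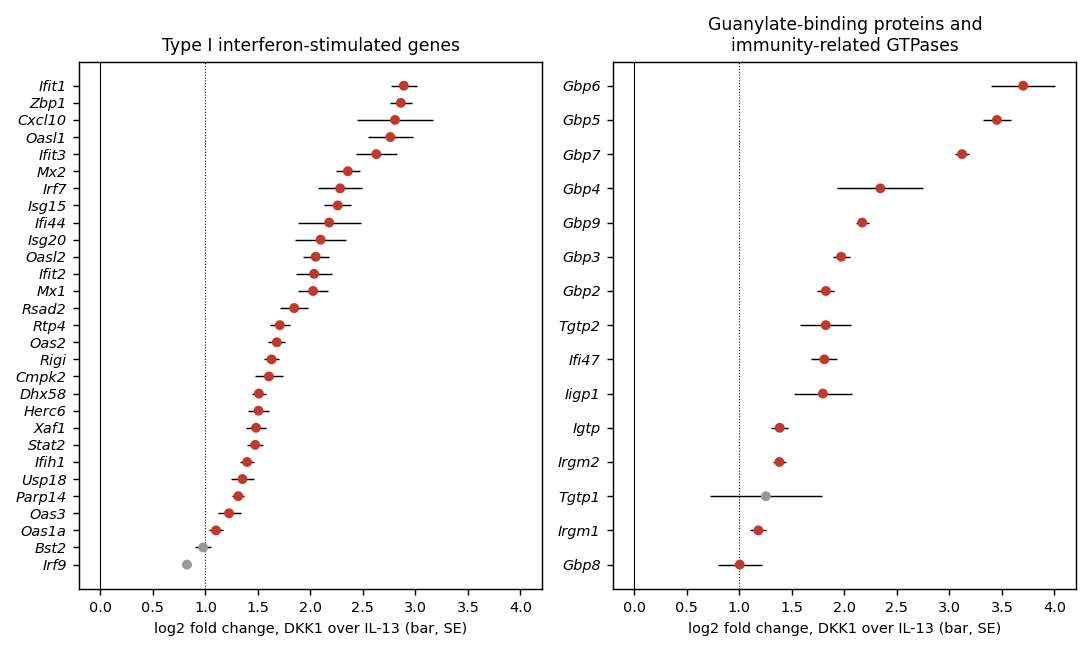
Log2 fold change of DKK1 over IL-13 for 29 of the 30 type I interferon-stimulated genes (left) and the 15 guanylate-binding proteins and immunity-related GTPases (right). Points are estimates from 3 libraries a group, bars are approximate standard errors, the dotted line is the fold threshold of 1 and gray points were not called. Every point lies above 0, and Irf9, Bst2 and Tgtp1 are the gray ones.

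The core of the interferon-stimulated response element, GAAA and GAAA with any pair of bases between, bound by ISGF3 and IRF factors, was in 11 of 25 promoters of the interferon-stimulated genes (44%, from 21 of 30 genes with an entry) and in 9 of 11 promoters of the GTPases (81.8%, 10 of 15 genes). The share was 9.66% of promoters of genes higher with DKK1, 3% of those of genes lower, 3.28% of those of the genes tested and 3.44% of all in the table. Matches were sought on both strands, matches that overlap each other were counted once per promoter, and a match on the other strand reads TTTC, any pair of bases and TTTC. Windows are shown for 4 genes of the list, with all matches in capitals.
Isg15, chr4:156200867-156200916, minus strand: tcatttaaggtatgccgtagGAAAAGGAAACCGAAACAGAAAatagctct
Ifit1, chr19:34640765-34640814, plus strand: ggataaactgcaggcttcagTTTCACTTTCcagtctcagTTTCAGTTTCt
Oas1a, chr5:120907526-120907565, minus strand: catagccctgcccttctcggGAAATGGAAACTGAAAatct
Stat2, chr10:128270256-128270305, plus strand: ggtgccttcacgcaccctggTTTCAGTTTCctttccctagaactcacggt
The AP-1 site TGANTCA, sought on both strands, was in 9.46% of promoters of genes higher with DKK1, 6.59% of those of genes lower and 5.58% of those of the genes tested (7.81% of the table). These motifs can share bases with one another.

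Of 23 inflammatory genes known from NF-κB and LPS responses, 12 were higher with DKK1 and none lower (median 1.05). Tlr2, the receptor of bacterial lipopeptides, had 396, 357 and 378 CPM in the DKK1 libraries, against 75.2, 74.2 and 79.2 CPM in the IL-13 libraries (2.31 ± 0.04), and 208 ± 5.27 CPM in untreated cells. Cd14, the co-receptor of TLR4, had 604, 594 and 604 CPM in the DKK1 libraries, against 163, 139 and 137 CPM in the IL-13 libraries (2.04 ± 0.06), and 294 ± 8.5 CPM in untreated cells. Both were thus above baseline with DKK1 and below it with IL-13. The mitochondrial superoxide dismutase Sod2 averaged 420.4 ± 28 CPM with DKK1, against 85.1 ± 3.17 CPM with IL-13 (2.3 ± 0.05), and Acod1, which makes itaconate, 57.3 ± 12 CPM with DKK1, against 9.26 ± 2.12 CPM with IL-13 (2.63 ± 0.14). Bcl3 (1.83 ± 0.07), Nfkb2 (1.34 ± 0.04) and Relb (1.29 ± 0.05) belong to the NF-κB family and its nuclear partners. Nfkb1 (0.02 ± 0.04), Rela (0.42 ± 0.04) and Rel (-0.86 ± 0.06) of the same family were not called. Tnf had 5.92, 6.98 and 7.51 CPM in the DKK1 libraries, against 10.3, 9.69 and 9.68 CPM in the IL-13 libraries (-0.54 ± 0.10), below its untreated level of 20.9 ± 0.628 CPM with both ligands. Il6 was called higher at under 1 CPM (2.63 ± 0.82).

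Of 15 IL-1 family and inflammasome genes, 8 were higher and 1 lower (median 1.25). Next to Il1b, the antagonist Il1rn averaged 48.8 ± 4.01 CPM with DKK1, against 15.2 ± 1.04 CPM with IL-13 (1.69 ± 0.08), the second agonist Il1a 4.41 ± 0.645 CPM with DKK1, against 0.675 ± 0.3 CPM with IL-13 (2.69 ± 0.27), and the decoy receptor Il1r2 1.69 ± 0.0676 CPM with DKK1, against 0.177 ± 0.0373 CPM with IL-13 (3.22 ± 0.40). The signaling receptor Il1r1 had 5.98, 2.59 and 4.67 CPM in the DKK1 libraries, against 1.07, 1.76 and 1.2 CPM in the IL-13 libraries (1.71 ± 0.26). Of the inflammasome, the sensor Nlrp3 (1.25 ± 0.04) and the caspase Casp4 (1.47 ± 0.08) were higher, and the adaptor Pycard (-0.28 ± 0.06) and Casp1 (0.22 ± 0.05) were not called. Il1rl1, the receptor ST2 of the type 2 cytokine IL-33, was the member that was lower, with 0, 0.154 and 0.131 CPM in the DKK1 libraries, against 2.15, 3.62 and 3.27 CPM in the IL-13 libraries (-4.96 ± 0.74).

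Of 12 CC chemokines, 4 were higher and 2 lower with DKK1 (1 lower without DKK1 replicate 1), and of 12 CXC chemokines 7 were higher and none lower (1 lower without IL-13 replicate 2), with medians of 0.48 and 2.73. Ccl5, a ligand of CCR1 and CCR3, had 445, 390.1 and 396 CPM in the DKK1 libraries, against 78.6, 52 and 68.2 CPM in the IL-13 libraries (2.63 ± 0.09), and 4.05 ± 0.667 CPM in untreated cells, so IL-13 cultures were also above baseline. Ccl6 averaged 698 ± 7.85 CPM with DKK1, against 208 ± 22.4 CPM with IL-13 (1.75 ± 0.07). The monocyte attractants Ccl2 (1.5 ± 0.14) and Ccl12 (3.25 ± 0.28) were higher too. Ccl7 (0.06 ± 0.15), Ccl3 (0.04 ± 0.11) and Ccl4 (-0.62 ± 0.21) were not called.

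Among CXC chemokines, several ligands of CXCR2 were called. Cxcl3 had 23.8, 18.4 and 25.1 CPM in the DKK1 libraries, against 0.417, 0.412 and 0.736 CPM in the IL-13 libraries (5.41 ± 0.21), Cxcl2 averaged 42.2 ± 4.7 CPM with DKK1, against 4.53 ± 0.43 CPM with IL-13 (3.22 ± 0.11), and Cxcl1 (3.45 ± 0.35) and Cxcl5 (4.94 ± 0.54) were higher at low levels. Pf4, platelet factor 4, had 2129.9, 2316 and 2504 CPM in the DKK1 libraries, against 349, 358 and 389 CPM in the IL-13 libraries (2.66 ± 0.06). Ppbp, another platelet chemokine, averaged 54.9 ± 4.58 CPM with DKK1, against 2.48 ± 1.12 CPM with IL-13 (4.46 ± 0.15). The platelet markers Treml1 (-0.01 ± 0.16), Gp1ba (0.35 ± 0.33) and Itga2b (0.93 ± 0.48) were not called and stayed under 4 CPM in both ligand means, and the part of platelets or megakaryocytes in Pf4 and Ppbp was not tested. Of 10 chemokine receptors, 2 were higher and 1 lower (median 0.64). Ccr1, a receptor of inflammatory CC chemokines, had 119, 117 and 128 CPM in the DKK1 libraries, against 13.1, 15.3 and 19.6 CPM in the IL-13 libraries (2.92 ± 0.08). Cxcr3 averaged 6.7 ± 1.02 CPM with DKK1, against 2.19 ± 0.145 CPM with IL-13 (1.61 ± 0.15). Ccr3, the eotaxin receptor, averaged 5.36 ± 0.202 CPM with DKK1, against 35 ± 5.25 CPM with IL-13 (-2.71 ± 0.12), and Cxcr2 was just under the fold threshold (0.97 ± 0.15, and 1.08 without IL-13 replicate 1).

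HIF-1 is the transcription factor of the response to low oxygen and drives glycolytic genes. Of 23 hypoxia and glycolysis genes, 8 were higher and 1 lower with DKK1 (median 0.76). Hif1a had 662, 612 and 609 CPM in the DKK1 libraries, against 57.5, 57.4 and 68 CPM in the IL-13 libraries, and 75.3, 72.7 and 70.2 CPM in untreated cells. The IL-13 libraries were all below the untreated ones, and the log2 fold change was 3.36 ± 0.06 (adjusted p = 3.15e-21, edgeR's quasi-likelihood test). Pfkfb3, which makes the activator of phosphofructokinase, averaged 280.2 ± 40.3 CPM with DKK1, against 24.8 ± 2.51 CPM with IL-13 (3.5 ± 0.09), Pfkl, the liver-type phosphofructokinase, 228 ± 4.97 CPM with DKK1, against 65.3 ± 2.73 CPM with IL-13 (1.8 ± 0.04), and the lactate exporter Slc16a3 182 ± 13.5 CPM with DKK1, against 46.8 ± 1.88 CPM with IL-13 (1.96 ± 0.05). Pfkp, the platelet-type phosphofructokinase, was the member that was lower, with 49.7 ± 2.23 CPM with DKK1, against 124 ± 3.85 CPM with IL-13 (-1.33 ± 0.04). The HIF prolyl hydroxylase Egln3 was higher (3.88 ± 0.21), as was Vegfa, with 110.2 ± 2.1 CPM with DKK1, against 26.8 ± 3.1 CPM with IL-13 (2.04 ± 0.09) and 86.4 ± 9.28 CPM in untreated cells. Several enzymes of glycolysis were under the fold threshold, among them Ldha (0.3 ± 0.04), Eno1 (0.49 ± 0.04), Pkm (0.53 ± 0.04) and Pgam1 (0.02 ± 0.05).

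Of 17 LXR, PPAR and lipid handling genes, 2 were higher and 5 lower (median -0.44). Lpl, lipoprotein lipase, had 162, 143 and 159 CPM in the DKK1 libraries, against 2551, 2828 and 2977 CPM in the IL-13 libraries (-4.17 ± 0.07), and 1912 ± 185 CPM in untreated cells. Cd36, a receptor of fatty acids and oxidized lipoproteins, had 414, 432 and 443 CPM in the DKK1 libraries, against 2944, 3183 and 3425 CPM in the IL-13 libraries (-2.89 ± 0.05), and 1207 ± 35.8 CPM in untreated cells. Both were above baseline with IL-13 and below it with DKK1. Lipa, the lysosomal acid lipase, averaged 508 ± 13 CPM with DKK1, against 2117 ± 36.6 CPM with IL-13 (-2.06 ± 0.03) and the cholesterol exporter Abcg1 57.5 ± 3.74 CPM with DKK1, against 215 ± 20.1 CPM with IL-13 (-1.9 ± 0.08). The related exporter Abca1 went the other way, with 1599.6 ± 37.6 CPM with DKK1, against 545 ± 60.2 CPM with IL-13 (1.55 ± 0.06), as did the fatty acid binding protein Fabp5 (1.59 ± 0.06). Apoe, the most abundant of the list, had 20571, 19432 and 22072 CPM in the DKK1 libraries, against 11749.6, 10502 and 10443 CPM in the IL-13 libraries, which on the log2 scale was 0.92 ± 0.04 and below the cutoff for a call.

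Cholesterol synthesis genes differed little. Of 21, only Mvd was called, higher by 1.02 ± 0.08 (0.92 with library size only and 0.93 without IL-13 replicate 1), and none was lower, with a median of 0.19. In all 21 the untreated mean was below both ligand means, against 4134 of the 16306 genes tested.

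Of 12 MHC class II presentation genes, none was higher and 4 were lower with DKK1 (median -0.66). Cd74, the invariant chain, had 477, 328 and 389.9 CPM in the DKK1 libraries, against 1453, 1102 and 1229 CPM in the IL-13 libraries (-1.66 ± 0.12), and 390.4 ± 39.6 CPM in untreated cells. H2-Aa averaged 65.1 ± 11.5 CPM with DKK1, against 213 ± 34 CPM with IL-13 (-1.71 ± 0.11) and H2-Eb1, which it overlaps on the other strand, 64.4 ± 12.1 CPM with DKK1, against 199 ± 27.1 CPM with IL-13 (-1.62 ± 0.10). Ciita, the transactivator of the class, averaged 15.7 ± 4.49 CPM with DKK1, against 32.1 ± 2.64 CPM with IL-13 (-1.03 ± 0.13) and was under the fold threshold without DKK1 replicate 2 (-0.90), DKK1 replicate 3 (-0.94) or IL-13 replicate 3 (-0.96). Without IL-13 replicate 1, 1 member was called higher. Of 11 MHC class I presentation genes, only Nlrc5, the transactivator of that class, was called, with 139 ± 21.7 CPM with DKK1, against 45.4 ± 5.64 CPM with IL-13 (1.62 ± 0.09; median of the list 0.49). In all 11 the untreated mean was nearer to the IL-13 mean, and replicate 1 was the highest library in 10 genes with DKK1, 10 with IL-13 and 11 in untreated cells.

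Proliferation genes were lower with DKK1 almost without exception. Of 20 DNA replication genes, 19 were lower with DKK1 and none higher, and of 20 mitosis genes all 20 were lower (medians -2.31 and -2.55). Mcm5, a subunit of the replicative helicase, had 17.8, 22 and 18.1 CPM in the DKK1 libraries, against 155, 161 and 160.4 CPM in the IL-13 libraries, and 29.9, 32.2 and 34.7 CPM in untreated cells. Pcna, the sliding clamp, had 72.1, 74.3 and 67.1 CPM in the DKK1 libraries, against 415, 418 and 402 CPM in the IL-13 libraries, and 182, 156 and 159 CPM in untreated cells. Every IL-13 library was above and every DKK1 library below the untreated ones in both genes, with log2 fold changes of -3.04 ± 0.07 and -2.53 ± 0.06 (adjusted p = 1.91e-19 and 1.58e-19, edgeR's quasi-likelihood test). The ribonucleotide reductase subunit Rrm2 averaged 12.1 ± 0.46 CPM with DKK1, against 101 ± 4.66 CPM with IL-13 (-3.06 ± 0.07) and Mcm6 34.2 ± 2.17 CPM with DKK1, against 186 ± 4.9 CPM with IL-13 (-2.44 ± 0.05). Slbp, which binds histone mRNA, was not called (-0.76 ± 0.07). In all 20 replication genes the untreated mean was nearer to DKK1, and it lay between the ligand means in 16 and below both in 4.

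Mitosis genes differed from replication genes in their baseline. Mki67, the proliferation marker Ki-67, had 122, 126 and 112 CPM in the DKK1 libraries, against 564, 609 and 649 CPM in the IL-13 libraries, and 264, 349 and 389 CPM in untreated cells (-2.34 ± 0.09). Kif11, a motor of the spindle, had 19.1, 21.1 and 19.4 CPM in the DKK1 libraries, against 124, 136 and 138 CPM in the IL-13 libraries (-2.74 ± 0.08), and 59.3 ± 8.43 CPM in untreated cells. Ccna2 (-2.83 ± 0.09), Bub1b (-2.39 ± 0.08), Tpx2 (-2.65 ± 0.08) and Aurkb (-2.15 ± 0.08) followed. In all 20 the untreated mean lay between the ligand means, and in 18 it was nearer to IL-13. The sum of the list was 458, 514 and 449 CPM with DKK1, 2503, 2724 and 2782 CPM with IL-13, and 1155, 1433 and 1640 CPM in untreated cells, so the untreated libraries varied most. Among regulators, Myc had 2.6, 2.22 and 2.81 CPM in the DKK1 libraries, against 31.7, 34.1 and 33.2 CPM in the IL-13 libraries (-3.7 ± 0.12) and Ccnd1, cyclin D1, 3.96, 4.23 and 3.88 CPM in the DKK1 libraries, against 77.8, 74.8 and 74.2 CPM in the IL-13 libraries (-4.23 ± 0.10).

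**Figure D4:**
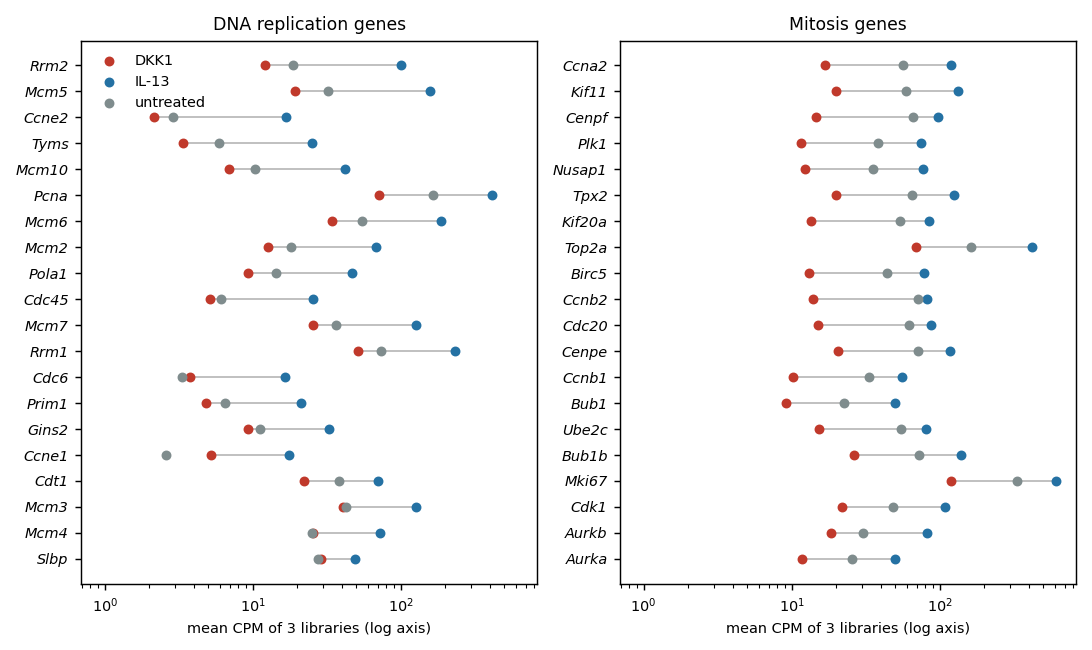
Mean level (CPM, log axis, 3 libraries) of 20 DNA replication genes (left) and 20 mitosis genes (right) with DKK1, with IL-13 and in untreated cells, joined by a line between the ligands. DKK1 is left of IL-13 for all 40 genes. Untreated is nearer to DKK1 than to IL-13 for all 20 replication genes. It lies between the ligands for 16 replication genes and for all 20 mitosis genes.

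An E2F-type site, TTTNNCGC on either strand, was searched after the values were seen, because E2F factors control replication genes. It was in 8 of 18 promoters of the replication genes (44.4%, 17 of 20 genes with an entry) and in 1 of 16 of the mitosis genes (6.25%), against 8.04% of promoters of the genes tested and 5.17% of all in the table. Among genes lower with DKK1 it was in 11.1% and among genes higher in 5.09%. Windows of 3 replication genes are shown with matches in capitals, where a match on the other strand reads GCGNNAAA.
Mcm5, chr8:75109336-75109383, plus strand: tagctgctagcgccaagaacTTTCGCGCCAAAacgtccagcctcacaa
Mcm6, chr1:128359788-128359835, minus strand: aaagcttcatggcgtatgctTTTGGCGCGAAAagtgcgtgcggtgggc
Cdc6, chr11:98907993-98908040, plus strand: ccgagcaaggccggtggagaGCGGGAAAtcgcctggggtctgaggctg

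Of 22 matrix, protease and thrombospondin genes, 6 were higher and 4 lower with DKK1 (median 0.64). Besides Vcan and Thbs1, the membrane-bound metalloproteinase Mmp14 had 951, 898 and 908 CPM in the DKK1 libraries, against 151, 127 and 149 CPM in the IL-13 libraries (2.69 ± 0.05), and Mmp19 averaged 94.9 ± 4.53 CPM with DKK1, against 35.2 ± 2.26 CPM with IL-13 (1.43 ± 0.05). Mmp12, the macrophage elastase, had 112, 116 and 120.4 CPM in the DKK1 libraries, against 614, 899 and 923 CPM in the IL-13 libraries (-2.81 ± 0.10), with IL-13 replicate 1 the lowest of its group. Spp1, osteopontin, averaged 127 ± 15.2 CPM with DKK1, against 459.6 ± 41.5 CPM with IL-13 (-1.86 ± 0.08) and Fn1, fibronectin, 158 ± 5.82 CPM with DKK1, against 427 ± 54.9 CPM with IL-13 (-1.43 ± 0.12). The collagen-degrading cathepsin Ctsk averaged 5.06 ± 0.564 CPM with DKK1, against 13.8 ± 1.07 CPM with IL-13 (-1.45 ± 0.17). Timp1, an inhibitor of metalloproteinases (0.67 ± 0.14), and Mmp9 (0.99 ± 0.06) were not called.

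Growth factors of repair went both ways, with 2 of 13 higher and 3 lower (median -0.07), against 6.76% and 8.60% of all genes tested. Igf1 had 276, 308 and 282 CPM in the DKK1 libraries, against 1517, 1579 and 1618 CPM in the IL-13 libraries (-2.44 ± 0.04), and 945 ± 21.4 CPM in untreated cells. Pdgfb averaged 39.6 ± 1.76 CPM with DKK1, against 122 ± 5.03 CPM with IL-13 (-1.63 ± 0.06) and was highest in untreated cells at 192 CPM. Vegfc was lower (-3.29 ± 0.37) while Vegfa and oncostatin M, Osm (1.74 ± 0.11), were higher. Tgfb1 averaged 438 ± 3.45 CPM with DKK1, against 387 ± 12.7 CPM with IL-13 (0.18 ± 0.04) and was not called.

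Of 13 coagulation and plasminogen genes, 2 were higher and 3 lower (median -0.58), against 6.76% and 8.60% of all genes tested. With library size only, without DKK1 replicate 1 and without IL-13 replicate 1, 5 were lower. F13a1, the transglutaminase subunit of factor XIII, had 656, 753 and 808 CPM in the DKK1 libraries, against 108, 87.2 and 91 CPM in the IL-13 libraries (2.95 ± 0.08), and 525 ± 40.3 CPM in untreated cells, between the ligands. Factor VII, F7, averaged 1.41 ± 0.309 CPM with DKK1, against 12.7 ± 0.585 CPM with IL-13 (-3.17 ± 0.18) and the urokinase Plau 27.6 ± 2.01 CPM with DKK1, against 127 ± 6.73 CPM with IL-13 (-2.2 ± 0.06). F10 lay near the threshold (-1.08 ± 0.10, and -0.98 without IL-13 replicate 3), and its untreated mean of 2.16 CPM was below both ligands.

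Among scavenger and efferocytosis receptors, 2 of 13 were higher and 4 lower (median -0.27), against 6.76% and 8.60% of all genes tested. Marco had 416, 464 and 576 CPM in the DKK1 libraries, against 72.1, 67.2 and 88.8 CPM in the IL-13 libraries (2.67 ± 0.11), and 16.6 ± 2.12 CPM in untreated cells. Cd163, the hemoglobin scavenger receptor, averaged 59.6 ± 2.07 CPM with DKK1, against 11.8 ± 1.41 CPM with IL-13 (2.33 ± 0.07). Besides Cd36, those that were lower were the oxidized lipoprotein receptor Olr1 (-3.21 ± 0.26), Axl, a receptor for apoptotic cells (-1.58 ± 0.11), and Trem2 (-1.08 ± 0.04), while the related Mertk was not called (0.47 ± 0.05).

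C-type lectin receptors went both ways, with 4 of 14 higher and 3 lower (median -0.34). Clec4n, dectin-2, had 343, 342 and 351 CPM in the DKK1 libraries, against 16.1, 17.1 and 18 CPM in the IL-13 libraries (4.34 ± 0.06, adjusted p = 2.80e-22, edgeR's quasi-likelihood test), and 65 ± 3.9 CPM in untreated cells. Clec4e, Mincle, averaged 117 ± 3.44 CPM with DKK1, against 12.1 ± 1.56 CPM with IL-13 (3.28 ± 0.07). Clec4d had 1296, 1274 and 1318 CPM in the DKK1 libraries, against 315, 282 and 304 CPM in the IL-13 libraries (2.11 ± 0.04). All 3 were below their untreated mean with IL-13. Clec4a1 was higher by 1.34 ± 0.04. Dectin-1 (Clec7a) and Mgl2, given above, and Clec4b1 (-1.04 ± 0.11, -0.95 without IL-13 replicate 2) were lower.

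Integrin chains showed large differences in few members, with 1 of 12 higher and 2 lower (median 0.05). Of all genes tested, 6.76% were higher and 8.60% lower. Itgax, which encodes CD11c, had 52.4, 54.3 and 51.1 CPM in the DKK1 libraries, against 1011, 1288 and 1409 CPM in the IL-13 libraries, and 50.7, 56.2 and 57.7 CPM in untreated cells. The DKK1 libraries were within the untreated range, and every IL-13 library was over 10 times higher (-4.55 ± 0.11). Itgb3 averaged 1.29 ± 0.237 CPM with DKK1, against 30.1 ± 2.2 CPM with IL-13 (-4.54 ± 0.15). Itgam, which encodes CD11b, had 775, 776 and 769.8 CPM in the DKK1 libraries, against 256, 276 and 300.2 CPM in the IL-13 libraries (1.48 ± 0.04), and 275 ± 7.62 CPM in untreated cells. The shared partner chain Itgb2 differed by -0.39 ± 0.04.

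Of 15 complement and Fc gamma receptor genes, 6 were higher and none lower (median 0.74). Fcgr1, the high-affinity IgG receptor, had 634, 559.6 and 572 CPM in the DKK1 libraries, against 124, 108 and 106 CPM in the IL-13 libraries (2.39 ± 0.07). Fcgr3 averaged 1837 ± 9.51 CPM with DKK1, against 659 ± 15.8 CPM with IL-13 (1.48 ± 0.03), the inhibitory Fcgr2b 655 ± 26 CPM with DKK1, against 276 ± 11.6 CPM with IL-13 (1.25 ± 0.06) and Fcgr4 was higher by 2.29 ± 0.10. Properdin, Cfp, had 1633, 1706 and 1707 CPM in the DKK1 libraries, against 462, 469 and 493 CPM in the IL-13 libraries (1.83 ± 0.04). Factor B, Cfb, averaged 15.8 ± 1.57 CPM with DKK1, against 0.73 ± 0.551 CPM with IL-13 (4.45 ± 0.25). The C1q chains differed by 0.44 (C1qa), 0.3 (C1qb) and 0.23 (C1qc) and were not called.

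Of 17 macrophage transcription factors, 2 were higher and 5 lower (median 0.07; 1 higher with library size only and without IL-13 replicate 2 or 3). The myeloid factors of the C/EBP family went in opposite directions. Cebpa had 190.4, 229 and 232 CPM in the DKK1 libraries, against 623, 601 and 620.2 CPM in the IL-13 libraries (-1.5 ± 0.05), and 776 ± 9.22 CPM in untreated cells. Cebpd had 119.7, 128 and 124 CPM in the DKK1 libraries, against 22.2, 21.2 and 20.5 CPM in the IL-13 libraries (2.54 ± 0.05), and 54.4 ± 2.15 CPM in untreated cells. Cebpb lay on the threshold (1.04 ± 0.07, and 0.94 with library size only, 0.96 without IL-13 replicate 2 and 0.99 without IL-13 replicate 3). Bhlhe40 averaged 10.8 ± 0.435 CPM with DKK1, against 96.5 ± 9.69 CPM with IL-13 (-3.15 ± 0.08), and Myc and Klf4, given above, were also lower. Irf8 (0.41 ± 0.04) and Spi1 (0.07 ± 0.03), lineage factors of macrophages, were not called.

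AP-1 and immediate-early genes gave 5 of 17 higher and 4 lower (median 0.08). Fosl2 had 165, 161 and 164 CPM in the DKK1 libraries, against 62.6, 65 and 74.3 CPM in the IL-13 libraries (1.28 ± 0.05). Batf (2.09 ± 0.20), Ier3 (1.68 ± 0.06) and Ier2 (1.45 ± 0.10) were higher too. Atf3, a stress-induced repressor, had 53.5, 49.6 and 50.4 CPM in the DKK1 libraries, against 375, 413 and 405 CPM in the IL-13 libraries (-2.96 ± 0.05), and 309.7 ± 11.1 CPM in untreated cells. Jun (-1.1 ± 0.05) and the phosphatase Dusp2 (-1.86 ± 0.18) were lower. Fos, whose groups overlapped (0.32 ± 0.14), and Junb (0.61 ± 0.06) were not called.

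Of 13 DKK1 receptors and Wnt pathway genes tested, 2 were higher and 4 lower (median -0.12; 2 lower with TREAT, which tests for a change beyond the fold threshold). The co-receptors that DKK1 binds, Lrp5 (0.38 ± 0.05) and Lrp6 (0.48 ± 0.05), were not called. Kremen1, which forms a complex with DKK1 and LRP6, averaged 65.2 ± 2.71 CPM with DKK1, against 29.3 ± 1.53 CPM with IL-13 (1.15 ± 0.06). Ckap4, another receptor of DKK1, averaged 26.2 ± 1.85 CPM with DKK1, against 54.9 ± 1.17 CPM with IL-13 (-1.07 ± 0.06). Of the Frizzled receptors, Fzd1 had 42, 43.3 and 43.4 CPM in the DKK1 libraries, against 10.6, 11.3 and 12.6 CPM in the IL-13 libraries (1.9 ± 0.08), while Fzd7 (-1.08 ± 0.06) and Fzd4 (-1.85 ± 0.38) were lower. Ccnd1, a target of β-catenin in other cells, was the member that differed most (-4.23 ± 0.10), and Ctnnb1 itself differed by -0.37 ± 0.04.

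Of 7 cAMP phosphodiesterases, 4 were higher with DKK1 and none lower (median 1.31). Pde4b had 108, 113 and 113 CPM in the DKK1 libraries, against 19, 18 and 20.9 CPM in the IL-13 libraries (2.53 ± 0.08), and Pde7b averaged 44.9 ± 4.18 CPM with DKK1, against 7.96 ± 0.653 CPM with IL-13 (2.5 ± 0.10). Pde3b (1.5 ± 0.05) and Pde4d (1.31 ± 0.20) were higher as well. Of 11 prostaglandin and leukotriene synthesis genes, 3 were higher and 1 lower (median 0.26). Alox5, the 5-lipoxygenase, averaged 16.7 ± 2.38 CPM with DKK1, against 4.02 ± 0.561 CPM with IL-13 (2.06 ± 0.14) and the prostaglandin E synthase Ptges 8.76 ± 0.945 CPM with DKK1, against 2.93 ± 0.486 CPM with IL-13 (1.57 ± 0.15). Ptgs2 lay on the threshold at low level (1.05 ± 0.23, and 0.83 without DKK1 replicate 1), and Ltc4s, leukotriene C4 synthase, was lower under 2 CPM (-1.69 ± 0.47).

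The 24 genes that the study names for its RNA seq were chosen on these samples and are no independent evidence. Of these, 15 were higher and 4 lower with DKK1 than with IL-13 (median 1.7). The 4 were Retnla, Chil3, Ccl22 and Arg1, and the genes not called were Mrc1, Ccl7, Tfec, Timp1 and Cxcr2. In 15 of the 24 the untreated mean was below both ligand means, against 4134 of the 16306 genes tested.

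**Figure D5:**
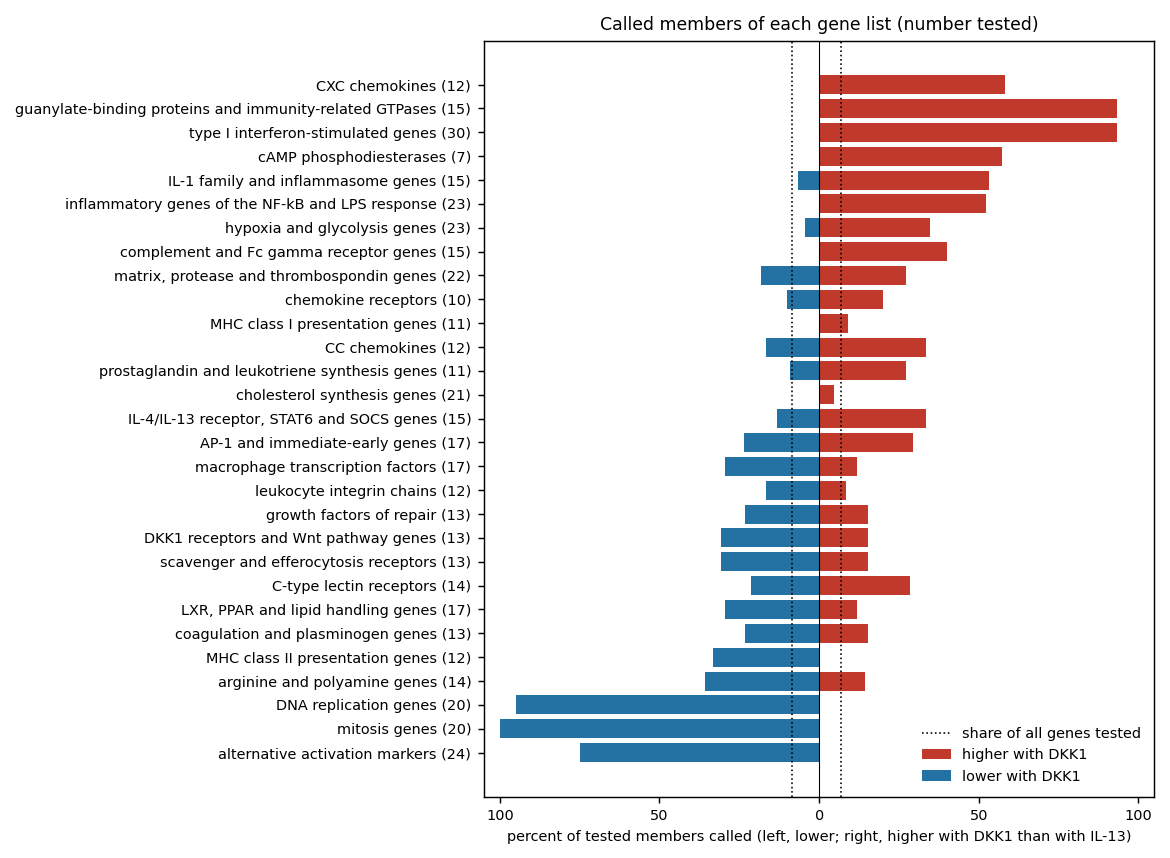
Percent of the tested members of each gene list called higher (right, red) or lower (left, blue) with DKK1 than with IL-13, in the order of the list's median log2 fold change, with the number of tested members in parentheses. Dotted lines are the shares of all genes tested (6.76% higher, 8.60% lower). Interferon-stimulated genes and GTPases reach over 90% on the right, and alternative activation markers, mitosis genes and DNA replication genes reach 75% or more on the left.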

How the data were processed

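BMDM RNA was sequenced from libraries of a stranded total RNA kit with ribosomal RNA depletion. For the deposited raw counts of 17723 genes, the authors used FastQC 0.11.9 for read quality, STAR 2.7.6a and GRCm39 for alignment and featureCounts for counting, and the submitters' processing notes name DESeq2 1.30.0. The sources used here give neither the annotation nor the strand setting of the counting. Genes that overlap another (106 of 515 looked up in GENCODE vM39, which holds 99.6% of the tested IDs) and near-identical family members are therefore uncertain. Every gene reached a count of at least 11 in some library. All columns matched a sample by name. A few genes that are counted in the lists are not reported here by name.

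From these counts, filterByExpr (minimum count 10, minimum total 15) kept 16306 genes. After TMM scaling, the quasi-likelihood test of edgeR 4.0.16 (R 4.3.3) was run on a model of all 12 libraries with 1 mean per group, DKK1 minus IL-13 was the contrast, and p-values were adjusted by the Benjamini-Hochberg method over all genes tested. The biological coefficient of variation was 0.0612. Replicates of these groups differed by a chi-square per gene of 4.31 to 9.05, so no library was a copy. A value of 1 is the counting error of independent reads, which the low counts were not. Alternatives were DESeq2 1.42.0, other scaling, other filters, a replicate block, TREAT and leaving out each replicate. The functions were tested on simulated counts. At this depth the spread between replicates sets the precision.

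Members and lists were chosen with earlier results of these data known. The rule for named genes took, in each direction, the 12 called genes of largest fold (mean count of at least 100, groups not overlapping, no predicted genes), the study's genes, and up to 4 called members per list and direction by smallest adjusted p. All other genes given with values were chosen after their values were seen. Promoters are those of RefSeq (GRCm38.p6), where 10651 of the 16306 genes tested had an entry.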

Additional observations from a re-analysis of the deposited data

How the results depend on the processing

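With TREAT, which tests for a change beyond the fold threshold, 666 genes were higher and 915 lower with DKK1, against 1102 and 1403 called. The counts stayed within 1.5 times with DESeq2 (1114 and 1384), RLE factors (1116 and 1388), upper-quartile factors (1083 and 1425), no filter (1145 and 1470), a CPM of at least 1 in 3 libraries (888 and 1147) and the 6 libraries alone (1039 and 1340). With library size only, 954 were higher and 1594 lower, the median log2 fold change of all genes was -0.111 in place of -0.0111, and 37.4% of calls were higher. Leaving out each replicate gave 1042 to 1129 higher and 1344 to 1389 lower. Over all genes, the deviations of same-numbered libraries were nearly uncorrelated (0.0211, 0.0206 and -0.00304), although replicate 1 was highest in the interferon-stimulated genes of each group. The main fit did not treat the numbers as pairs. The replicate block gave 1102 higher and 1399 lower. The alternatives were followed for 202 genes, those named by the rule and others chosen after their values were seen. Of these, 200 had a value with the 6 libraries alone and 197 with the CPM filter. Ccl7, which was not called, changed sign when 1 library was left out (-0.12 to 0.20). No call among the 202 genes changed direction. Of these calls, 22 ended with TREAT, 4 with library size only and 3 to 7 when 1 library was left out, and Cxcr2 was called without IL-13 replicate 1. Precision is limited by 3 cultures a group, a single dose of each ligand and 1 time.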

Other observations

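The genes of this part were chosen after their values were seen. Atp6v0d2 and Dcstamp, which take part in cell fusion, were lower with DKK1 than with IL-13. Atp6v0d2, a subunit of the proton pump, had 10.3, 10.3 and 12.7 CPM in the DKK1 libraries, against 329, 399.6 and 405 CPM in the IL-13 libraries, and 44.5 ± 6.56 CPM in untreated cells (log2 fold change -5.09 ± 0.12). Dcstamp, the fusion receptor related to Ocstamp, averaged 1.88 ± 0.44 CPM with DKK1, against 16.5 ± 3.8 CPM with IL-13 (-3.13 ± 0.19). No library overlapped between the ligands in either gene. Acp5, the tartrate-resistant phosphatase of osteoclasts, was not called (0.89 ± 0.07), nor was Nfatc1, their transcription factor (0.27 ± 0.04). Gatm, which makes the precursor of creatine from arginine, had 45.2, 48.1 and 42.7 CPM in the DKK1 libraries, against 556, 582 and 578 CPM in the IL-13 libraries (-3.66 ± 0.06), and 67.5 ± 0.655 CPM in untreated cells. Tfrc, the transferrin receptor, had 90.5, 102 and 96.8 CPM in the DKK1 libraries, against 509.8, 529.8 and 540.1 CPM in the IL-13 libraries (-2.45 ± 0.05), with 92.2 ± 0.996 CPM in untreated cells, so the DKK1 level was the baseline one. Siglecf averaged 1.14 ± 0.301 CPM with DKK1, against 16.3 ± 4.08 CPM with IL-13 (-3.83 ± 0.20), and Il1rl2, the receptor of IL-36, 6.04 ± 0.495 CPM with DKK1, against 28 ± 1.6 CPM with IL-13 (-2.21 ± 0.10).

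In the other direction, the formyl peptide receptors Fpr1 and Fpr2, which sense bacterial products, were higher with DKK1. Fpr1 had 124, 111 and 123 CPM in the DKK1 libraries, against 5.96, 3.32 and 4.86 CPM in the IL-13 libraries (4.67 ± 0.12), and Fpr2 averaged 91.9 ± 10.8 CPM with DKK1, against 4.19 ± 0.483 CPM with IL-13 (4.45 ± 0.10). Haptoglobin, Hp, an acute phase protein, averaged 108 ± 15.5 CPM with DKK1, against 7.14 ± 0.763 CPM with IL-13 (3.91 ± 0.16). Both kinds of paired receptor of the Pilr family were higher, Pilra by 3.24 ± 0.07, Pilrb1 by 3.44 ± 0.11 and Pilrb2 by 3.25 ± 0.10. The interferon-induced membrane proteins Ifitm1 (3.86 ± 0.15), Ifitm2 (2.56 ± 0.05), Ifitm3 (3.39 ± 0.11) and Ifitm6 (3.18 ± 0.20) were higher, as was Ifitm5 at a low level (3.64 ± 0.70), while Ifitm10, also low, was lower (-2.12 ± 0.67). Ifitm3 had 1142, 947 and 1005 CPM in the DKK1 libraries, against 123, 86.1 and 86.2 CPM in the IL-13 libraries. The Schlafen gene Slfn1 had 35.5, 22.3 and 22.1 CPM in the DKK1 libraries, against 2.74, 1.07 and 1.2 CPM in the IL-13 libraries (4.01 ± 0.26), with replicate 1 the highest library of each group. Ms4a6b (3.05 ± 0.09), Ms4a4c (2.92 ± 0.21), Ms4a4a (2 ± 0.05) and Ms4a6d (1.77 ± 0.04) of the Ms4a cluster were higher too, and such families have close relatives whose reads may be split. Bst1, a relative of Cd38, had 104, 92.4 and 103 CPM in the DKK1 libraries, against 9.18, 9.31 and 10.3 CPM in the IL-13 libraries (3.38 ± 0.07). Gja1, connexin 43, averaged 50.5 ± 0.832 CPM with DKK1, against 1.75 ± 0.609 CPM with IL-13 (4.84 ± 0.12), and the collagen-binding integrin Itga1 48.9 ± 4.02 CPM with DKK1, against 1.88 ± 0.121 CPM with IL-13 (4.7 ± 0.10). Stat3 averaged 399 ± 16.5 CPM with DKK1, against 134 ± 10.7 CPM with IL-13 (1.58 ± 0.05), with 152 ± 3.87 CPM in untreated cells.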
